A study of Mus musculus with 8 samples.

Results

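The BCL2 family survival genes comprised Bcl2, Bcl2l1, Bcl2l11, Mcl1, Bax, Bak1, Bad, Bid, Bbc3 and Bnip3l, 10 of the 11364 genes in the RNA tables. They were taken by symbol, and 13 of the 5551 merged ChIP-seq sites belonged to them because the transcription start site (TSS) of a member was the closest one. The cells were K1, an immortalized erythroid line from Klf1-/- mouse fetal liver, and sublines that carried a retroviral fusion of KLF1 to an estrogen receptor ligand-binding domain, which enters the nucleus when 4-hydroxytamoxifen (4-OHT) is added. KLF1-ER is the wild type fusion and KLF1-E339K-ER the fusion with the zinc finger change that models congenital dyserythropoietic anemia type IV. All lines lacked endogenous KLF1. By the labels, 4sU-labeled RNA, which reports newly made transcripts, was sequenced from 3 K1-E339K-ER libraries given 200 nM 4-OHT, from 2 K1 libraries given 200 nM 4-OHT and from 1 K1 library given ethanol, with 500 µM 4sU for 30 min; the study's methods give another concentration and a longer labeling time. The 3 K1-E339K-ER libraries came from separate clones. KLF1-E339K-ER ChIP-seq was 1 library and 1 input library from 1 clone after 3 h of 200 nM 4-OHT, with 3 replicates pooled before sequencing, and the KLF1-ER ChIP libraries came from earlier work. The RNA tables give 1 mean level per gene over the libraries of the authors' fit, and the site table gives 1 mean per protein, so no value per library was at hand, no error between replicates could be computed from such values, and the depth of the libraries is unknown. The KLF1-ER table gives the same mean levels as the KLF1-E339K-ER table, so they may also pool K1-ER libraries, which were not analysed here. No test was run, and those of the authors were not used.

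Proteins of the BCL2 family decide whether the outer mitochondrial membrane stays intact. Survival proteins such as BCL2, BCL-XL and MCL1 hold the effectors BAX and BAK in check, and BH3-only proteins such as BIM, BAD, BID and PUMA are released or induced by stress and oppose the survival proteins. Erythroid precursors depend on this balance, with BCL-XL sustaining late precursors under erythropoietin and NIX, the product of Bnip3l, marking mitochondria for removal as reticulocytes mature.

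Sequences around the binding sites were read from the mm9 genome to show the bases at sites near these genes that were higher for KLF1-ER or for KLF1-E339K-ER. On the G-rich strand the motif searched for KLF1-ER has a pyrimidine at its centre (NGGGCGTGG, NGGGCGGGG, NGGGTGTGG or NGGGTGGGG), and the motif searched for KLF1-E339K-ER has a purine there (NGGGAGTGG, NGGGAGGGG, NGGGGGTGG or NGGGGGGGG). Both were searched on both strands, the letters of one motif can overlap a match of the other, and a match describes the letters only. The sites of Bbc3, which encodes PUMA, are numbered from 1 to 9 in the direction of transcription. Capitals mark the motif in the following stretches. Bbc3 site 4 (chr7:16898154-16898214, plus strand) lies in an intron and was higher for KLF1-E339K-ER, and Bbc3 site 5 (chr7:16898601-16898661, plus strand), also intronic, and site 6 (chr7:16899029-16899089, minus strand, in a coding exon) were higher for KLF1-ER.
Bbc3 site 4: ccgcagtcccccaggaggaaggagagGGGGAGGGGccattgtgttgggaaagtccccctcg
Bbc3 site 5: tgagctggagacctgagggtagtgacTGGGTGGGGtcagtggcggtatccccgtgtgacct
Bbc3 site 6: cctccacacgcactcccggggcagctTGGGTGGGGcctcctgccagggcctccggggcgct
Motif and direction did not always go together. Bbc3 site 1 (chr7:16894750-16894810, minus strand), upstream of the gene, held the pyrimidine motif but was higher for KLF1-E339K-ER, and site 3, also higher for KLF1-E339K-ER, held both motifs.
Bbc3 site 1: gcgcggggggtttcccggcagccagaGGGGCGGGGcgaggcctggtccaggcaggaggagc
The stretches from Bax (chr7:52729849-52729877, plus strand) and Bbc3 site 9 (chr7:16903359-16903387, plus strand) carried the purine motif within annotated UTRs, of Dhdh and of Bbc3, and are given as 29 bases.
Bax: agagagggaaTGGGGGGGGagctgagctg
Bbc3 site 9: atggggagtcAGGGAGGGGggaagtctca
The Bcl2l1 site (chr2:152657067-152657127, plus strand), in an intron, held neither motif and is shown because it had the largest difference that did not rest on a lowest listed value. The stretch is centred on aaggagggg, which has 1 mismatch to the purine motif; the stretch also comes within 1 mismatch of the pyrimidine motif.
Bcl2l1: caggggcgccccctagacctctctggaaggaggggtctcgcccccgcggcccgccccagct

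All 10 members were listed in both RNA tables, paired on identifier, length and mean level. Levels are given as the authors' mean log2 CPM (counts scaled to library size) minus the log2 of the deposited gene length in kb, which spans introns and ran from 4.46 kb for Mcl1 to 176 kb for Bcl2. On this scale the median of the members was 1.70 and that of all 11364 genes was 0.82, with quartiles of -0.87 and 2.26. Of the members, 7 lay above the median of all genes and 4 above the upper quartile. With annotated exon length in place of gene length, the median was 3.86 for the members and 3.52 for the 10546 genes with an exon length, and 5 members lay above the latter. With no length scaling the medians were 5.35 for the members and 5.27 for all genes, so the members' place above the median of all genes rests largely on the length scale.

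Among the survival genes the levels lay at both ends of the family. Mcl1, which encodes a short-lived survival protein, had a log2 level per kb of 6.69, above 99.2% of genes. Bcl2l1, the gene for BCL-XL, stood at -0.55, above 28.7% of genes. Bcl2, the founding member of the family, stood at -5.63, above 2.67% of genes. Mcl1 and Bcl2 were thus 12.32 apart on the log2 scale per kb, and they were also the highest and lowest member per kb of exon, at 7.05 and -1.02.

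The effector and BH3-only genes fell between them. Of the effectors, which form the pores in the outer membrane, Bax had a log2 level per kb of 4.10 and Bak1 of 1.46. Among the BH3-only genes, Bbc3 reached 4.18, above 93.6% of genes. Bid, whose product is cleaved by caspase 8, had 2.85, and Bad, whose product is held inactive by survival kinases, had 1.93. Bcl2l11, the gene for BIM, had the lowest log2 level per kb of the BH3-only members at 0.09. Bnip3l, the mitophagy receptor gene, stood at 0.86, close to the median of all genes. Neighbours in this order cannot be told apart from their spread, because each level is a single pooled value. Per kb of exon the leading 5 genes (Mcl1, Bbc3, Bax, Bid and Bad) held the same places, and Bak1 fell behind Bnip3l and Bcl2l11 behind Bcl2l1.

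**Figure D1:**
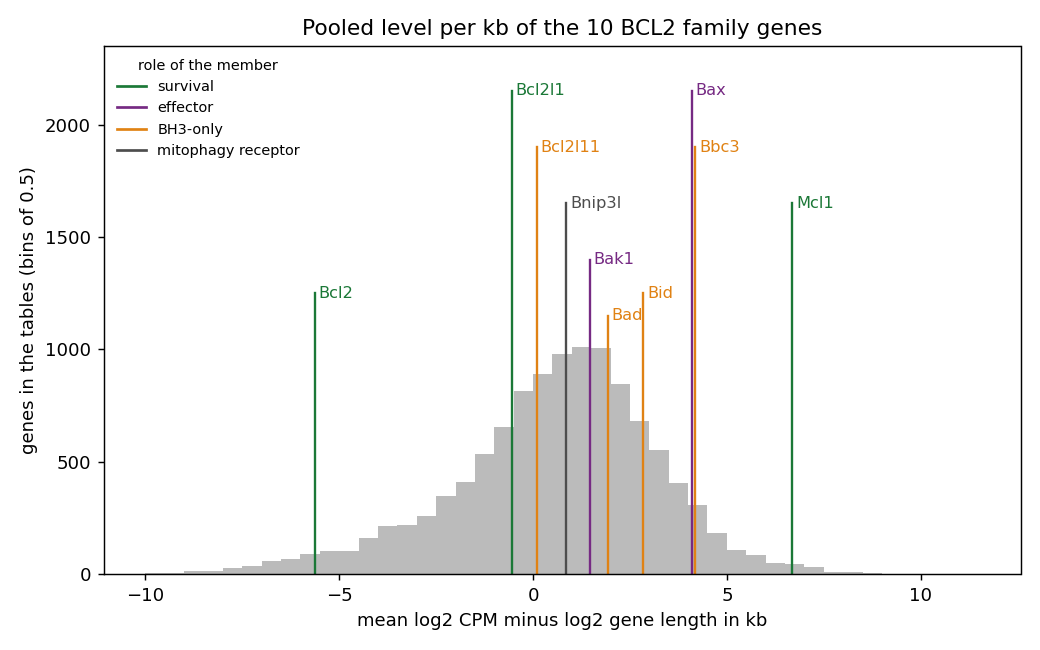
Distribution of the pooled level per kb (mean log2 CPM minus log2 gene length in kb) of all 11364 genes as grey bars, with a vertical line for each BCL2 family member coloured by role; line height has no meaning. Mcl1 lies at 6.69 and Bcl2 at -5.63, with the other 8 members between -0.55 and 4.18.

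The erythroid identity of the cells was checked against markers. All 15 erythroid markers were listed, from Alas2 at a log2 level per kb of 0.75 to Gata1 at 6.68, with a median of 3.50. One of them, Klf1, stood at 5.09 although the cells lack endogenous KLF1; its pooled level may include the fusion transgene and says nothing on identity, and without it the median of the other 14 was 3.45. None of 7 lymphoid and 5 hepatocyte markers was listed. Of 7 myeloid markers 2 were listed (Mpo at -1.57 and Elane at -0.16 per kb), of 6 megakaryocyte markers 3 (from Vwf at -1.78 to Itga2b at 1.25, with Gp9 at 1.08) and of 6 endothelial and stromal markers 1 (Col1a1 at -5.66). These levels are pooled over the libraries, so they say nothing on differences between the lines.

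KLF1 binding was then examined at the members. A concentration is the authors' log2 mean of normalized ChIP reads for one protein at one site, and a site was called higher for a protein when the concentrations differed by at least 1, which is 2-fold. Of the 10 members, 5 (Bcl2, Bcl2l1, Mcl1, Bax and Bbc3) were the closest TSS of at least 1 merged site, and 26.6% of all listed genes were. Bak1, Bcl2l11, Bad, Bid and Bnip3l had none. All 13 member sites lay within 10 kb of the TSS, as did 67.6% of all sites. Within 1 kb lay 5 member sites, those of Bcl2 and Bcl2l1 and Bbc3 sites 1 to 3. The share of all sites within 1 kb was not computed, so that count cannot be set against all sites. The median distance to the TSS over all sites was 2936 bp. KLF1-E339K-ER was higher at 10 of the 13 sites, against 61.5% of all sites, and KLF1-ER was higher at 3, against 28.7%. The members' split is therefore read only beside that of the whole table, in which the median mutant minus wild type difference was 2.60 over all sites, and 1.01 over the 3981 sites off the lowest listed value of both proteins. Relative to 2.60, KLF1-E339K-ER was higher at 5 of the 13 sites (41.5% of all sites) and KLF1-ER at 3 (42.3%). Relative to 1.01, the counts were 10 (55.2% of all sites) and 3 (33.3%). Nearly all sites (99.96%) reached a concentration of 3 for at least 1 protein, so a site that was low for one protein had to be high for the other. Below 2, the KLF1-ER concentration took only 7 distinct values over all sites, the lowest being -0.09 at 1424 sites, and the lowest for KLF1-E339K-ER was -0.38 at 147 sites. No difference is given for a single site against these lowest values.

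**Figure D2:**
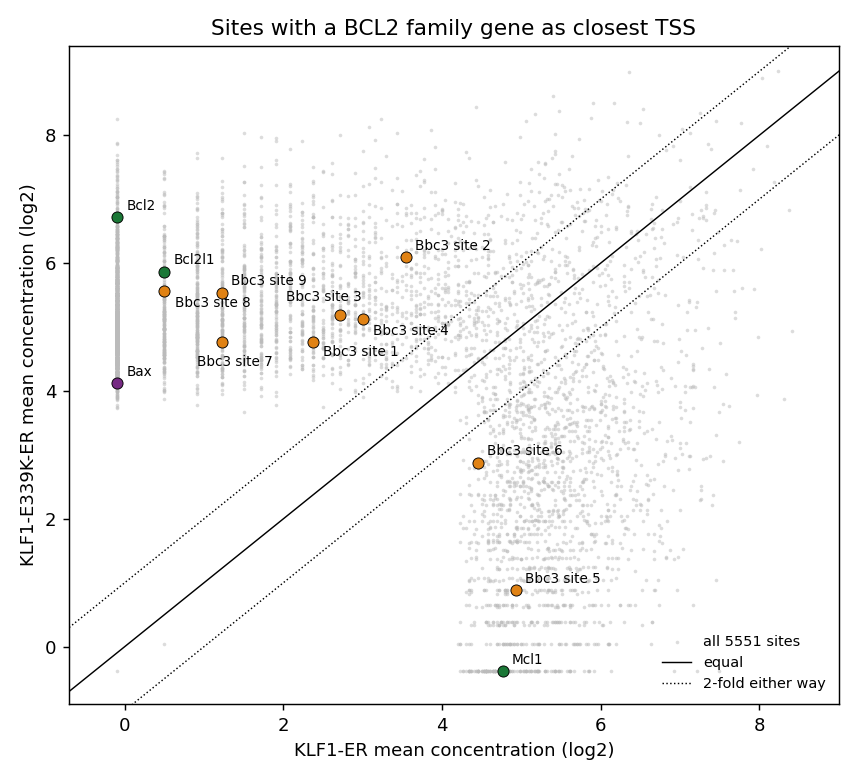
Mean log2 concentration of KLF1-ER (horizontal) and KLF1-E339K-ER (vertical) at all 5551 merged sites in grey, with the 13 member sites coloured by role (green for survival genes, purple for Bax, orange for Bbc3); the solid line marks equal values and dotted lines a 2-fold difference. The 10 sites above the upper dotted line are at Bcl2, Bcl2l1, Bax and Bbc3, and the 3 below the lower one are at Mcl1 and at Bbc3 sites 5 and 6.

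At the survival genes, binding near the start of Bcl2 and Bcl2l1 was found with KLF1-E339K-ER. The Bcl2 site (chr1:108610459-108610841) lay 217 bp downstream of the TSS in the annotated UTR. Its concentration was 6.72 for KLF1-E339K-ER, above 93.9% of all sites, and the lowest listed, -0.09, for KLF1-ER. The Bcl2l1 site (chr2:152656932-152657255) lay 324.5 bp downstream of the TSS, and had 5.87 for KLF1-E339K-ER and 0.50 for KLF1-ER, a log2 difference of 5.37. Both were thus high for the mutant protein and near the lowest value of the wild type, although neither held an exact purine or pyrimidine motif anywhere in the site. At Mcl1 the direction was opposite. Its site (chr3:95469762-95470077) lay 7276.5 bp downstream of the TSS, 2663 bp past the end of the gene, with 4.77 for KLF1-ER and the lowest listed value, -0.38, for KLF1-E339K-ER.

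Of the effector genes, Bax had a site (chr7:52729733-52730080) 7638.5 bp upstream of its TSS, in a UTR of the neighbouring gene Dhdh. Its concentration was 4.13 for KLF1-E339K-ER, above only 28.2% of all sites, and the lowest listed for KLF1-ER. A further site lay 514 bp past the 3′ end of Bax, with Ftl1 as its closest TSS, and had 4.77 for KLF1-ER and 4.68 for KLF1-E339K-ER, less than 2-fold apart. Bak1 had no site in the gene or within 10 kb of it.

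Of the BH3-only genes, Bbc3 held 9 of the 13 member sites. Only 5 of the 3670 genes named as a closest TSS had more sites, and 69.9% had 1. KLF1-E339K-ER was higher at 7 of the 9 Bbc3 sites and KLF1-ER at 2. Sites of both directions at the same gene were found for 35.3% of the 1103 genes with at least 2 sites. The 9 midpoints spanned 8635 bp, from 179.5 bp upstream of the TSS to 8455.5 bp downstream, which covers nearly the whole gene.

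Around the start of Bbc3, KLF1-E339K-ER was higher at 3 sites where KLF1-ER lay near its median over all sites, 2.82. The KLF1-ER values of sites 1, 2 and 3 lay above 45.8%, 54.8% and 49.1% of all sites. Site 1 (chr7:16894599-16894906), upstream of the TSS, had 4.77 for KLF1-E339K-ER and 2.37 for KLF1-ER. Site 2 (chr7:16895327-16895668), 565.5 bp into the gene, had 6.09 and 3.55 in the same order, the highest KLF1-E339K-ER value of the cluster. Site 3 (chr7:16895765-16896069), at 985 bp, had 5.19 and 2.72. These 3 sites differed by 2.40 to 2.54 on the log2 scale in favour of KLF1-E339K-ER, which is close to the median difference of 2.60 over all sites and more than 1 above the median of 1.01 over sites off both lowest values.

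In the middle of the gene the direction changed over a short distance. Site 4 (chr7:16898046-16898354), at 3268 bp, had 5.13 for KLF1-E339K-ER and 3.00 for KLF1-ER. Site 5 (chr7:16898465-16898782), 423.5 bp further on between midpoints, had 0.88 for KLF1-E339K-ER and 4.93 for KLF1-ER, a log2 difference of -4.05. Site 6 (chr7:16898874-16899207), at 4108.5 bp, had 2.88 and 4.46, a difference of -1.58. The KLF1-ER sites thus stood next to each other, flanked on both sides by sites higher for KLF1-E339K-ER. Site 7 (chr7:16899457-16899775), at 4684 bp, again had the higher value for KLF1-E339K-ER, 4.76 against 1.23.

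Toward the 3′ end of Bbc3 the KLF1-ER concentration was low. Site 8 (chr7:16902461-16903124), at 7860.5 bp, had 5.57 for KLF1-E339K-ER and 0.50 for KLF1-ER, a log2 difference of 5.07. Site 9 (chr7:16903231-16903544), at 8455.5 bp, had 5.54 and 1.23, a difference of 4.31. These UTR sites exceeded both medians by more than 1, while sites 1 to 4 and site 7 exceeded only that of 1.01 by as much.

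**Figure D3:**
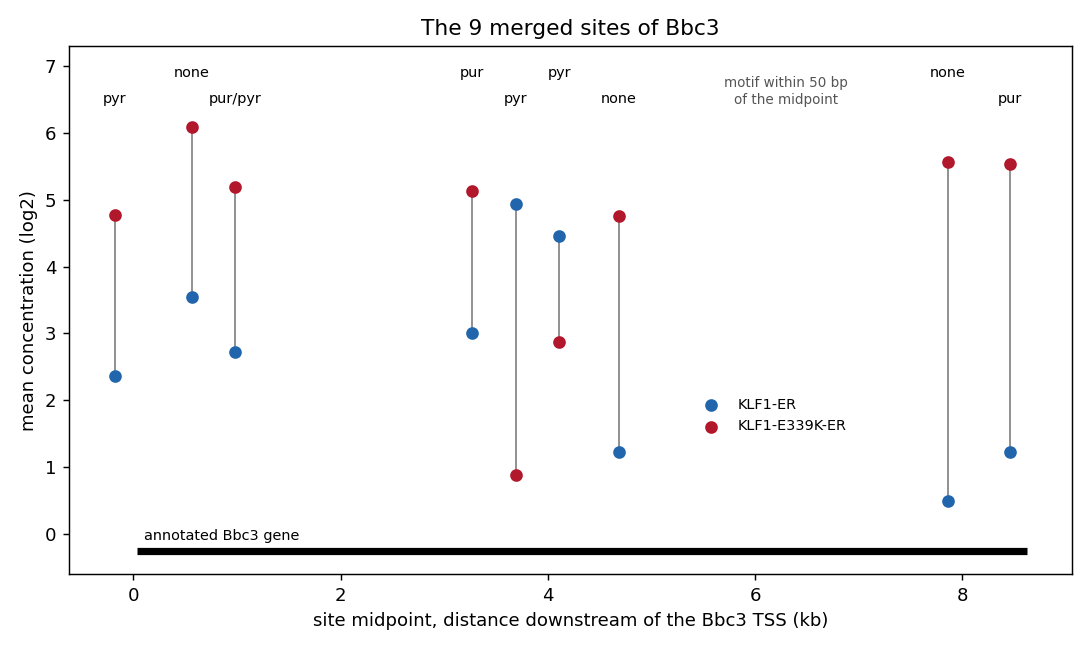
Mean log2 concentration of KLF1-ER (blue) and KLF1-E339K-ER (red) at the 9 Bbc3 sites against the distance of the midpoint from the TSS in kb, with the annotated gene as a black bar and the motif found within 50 bp of the midpoint written above each site (pur, purine; pyr, pyrimidine). Blue lies above red only at sites 5 and 6, 3691.5 and 4108.5 bp downstream of the TSS, where the pyrimidine motif was found; it was also found at sites 1 and 3, where red lies above blue.

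Bad, Bid and Bcl2l11 were the closest TSS of no site. A site (chr19:7016918-7017226) did lie within Bad, in an annotated UTR 721 bp from its 5′ end, with 6.25 for KLF1-E339K-ER and 0.50 for KLF1-ER, but the table gives Gpr137 as its closest TSS. No site lay within 50 kb of the 5′ end of Bcl2l11, Bid or Bnip3l.

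**Figure D4:**
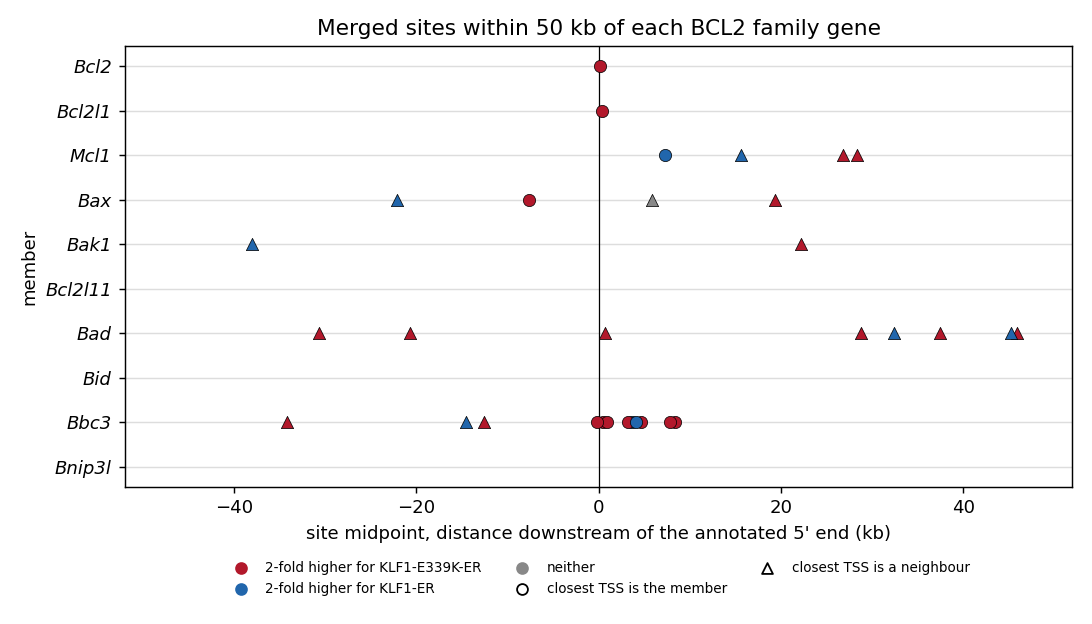
Merged sites within 50 kb of the annotated 5′ end of each member (rows), by the distance of the site midpoint in kb; circles have the member as closest TSS, triangles a neighbouring gene, and colour gives the protein with the 2-fold higher concentration. Bbc3 has 12 such sites, Bad 8, and Bcl2l11, Bid and Bnip3l 0.

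The motifs were counted within 50 bp of each midpoint. The purine motif was found at 4 of the 13 member sites (Bax and Bbc3 sites 3, 4 and 9), against 35.5% of all sites, and the pyrimidine motif at 5 (Mcl1 and Bbc3 sites 1, 3, 5 and 6), against 35.3%. Over the whole site each motif was found at 7 member sites. Of all sites, 58.4% held the purine and 58.6% the pyrimidine motif. The purine motif was then also found at Bbc3 sites 2, 6 and 8, of which site 6 was higher for KLF1-ER. The pyrimidine motif was then also found at Bbc3 sites 2 and 8, both higher for KLF1-E339K-ER. At site 8 the purine match lay 51.5 bp and the pyrimidine match 53.5 bp from the midpoint. Within 50 bp, all 3 member sites higher for KLF1-ER held the pyrimidine motif and none the purine motif, where 60.7% and 16.0% of all such sites did. Of the 10 member sites higher for KLF1-E339K-ER, 4 held the purine motif and 2 the pyrimidine motif, where 45.8% and 22.8% of all such sites did. Site 5 of Bbc3 had TGGGTGGGG 7.5 bp from its midpoint and site 6 the same letters on the other strand at 18.5 bp. Site 4, between which and site 5 the direction changed, had GGGGAGGGG at 16 bp. Within 50 bp, at least 1 of the motifs was found at 8 of the 13 member sites and at 57.8% of all sites. The other 5 member sites (Bcl2, Bcl2l1 and Bbc3 sites 2, 7 and 8) held neither motif there and were all higher for KLF1-E339K-ER. Each of the 5 came within 1 mismatch of the purine motif, as did 89.7% of all sites. Of the 5, 4 (all but Bbc3 site 8) also came within 1 mismatch of the pyrimidine motif, as did 85.1% of all sites. At the other end, site 3 of Bbc3 held both motifs.

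Promoters were searched in RefSeq windows of GRCm38.p6 from 250 bases before to 50 after a start, which were found for 9 members (not Bnip3l). Either motif stood in at least 1 promoter window of 7 members, where it did for 43.2% of 27025 genes. The 9 members had 15 windows and the 27025 genes had 32851, so the members had more windows per gene in which to find a match. The 27025 genes also include genes that were not listed in the RNA tables. The shares of genes are therefore not a like base for the members. The pyrimidine motif was found for 7 members (Bcl2, Bcl2l1, Bcl2l11, Bid, Bbc3, Bax and Bad; 32.5% of genes) and the purine motif for 4 (Bcl2l1, Bcl2l11, Bbc3 and Bax; 24.5% of genes). Mcl1 and Bak1 had neither in the window. Bcl2l11, Bid and Bad thus held motif letters in a promoter window and were the closest TSS of no merged site. A site did lie within Bad, with Gpr137 as its closest TSS. Mcl1 had a site and no such letters at its start. The windows of Bbc3 held 5, 3 and 4 pyrimidine matches and, in the same order, 0, 1 and 3 purine matches, some shared where windows overlap.

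Other genes of the pathway were taken from fixed lists. Of 62 genes, 49 were listed in the RNA tables, and 18 of those 49 were the closest TSS of a site within 10 kb, where 21.3% of all listed genes did. A site higher for KLF1-E339K-ER was found for 12 (13.5% of all genes) and one higher for KLF1-ER for 8 (7.57% of all genes). The other 17 BCL2 family genes and the 9 genes of the death receptor pathway had none. Only 8 of those 17 were listed, among them Bcl2l2 at a log2 level per kb of 2.34, the BH3-only genes Bnip3 at 0.08 and Becn1 at 1.76, and the atypical members Bcl2l13 at 2.53 and Bcl2l15 at -3.26. Of the death receptor genes 6 were listed, from Tnfrsf10b at -4.08 to Fadd at 2.68 per kb.

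The machinery that acts after the membrane step is assembled around APAF1 and the caspases. All 13 of its genes were listed, and the protease gene Htra2 had the highest log2 level per kb at 4.77. Apaf1 (4.51 for KLF1-E339K-ER, 2.50 for KLF1-ER) had a site higher for KLF1-E339K-ER. The initiator caspase gene Casp9 (3.92 for KLF1-E339K-ER, 6.53 for KLF1-ER) and Casp6 (1.93 and 4.74) had a site higher for KLF1-ER. Sites of both directions were found at Vdac1, the gene of an outer membrane channel, with 1.97 for KLF1-E339K-ER and 5.61 for KLF1-ER at 580 bp downstream and 5.96 against the lowest listed KLF1-ER value 8528 bp downstream.

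Inhibitors of apoptosis ran from Birc3 at -0.83 to Birc5 at 3.08 per kb, with 5 of 5 listed. Xiap, which blocks caspases, had a site with 4.93 for KLF1-E339K-ER and 2.08 for KLF1-ER. Birc6 had sites of both directions, with 1.62 for KLF1-E339K-ER and 6.05 for KLF1-ER 369.5 bp upstream of the TSS and 4.49 and 2.82 at 60 bp downstream.

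In the p53 pathway, which induces Bbc3 after DNA damage, 5 of 6 genes were listed, from Trp53inp1 at a log2 level per kb of -0.59 to Trp53 at 2.42. The p53 antagonist gene Mdm2 had a site at 4.48 for KLF1-E339K-ER and the lowest listed value for KLF1-ER, and its relative Mdm4 one at 0.39 and 5.14. Cdkn1a, the gene of the cell cycle inhibitor p21, had 3.05 for KLF1-E339K-ER and 4.84 for KLF1-ER at 1120 bp downstream, and 6.91 and 1.91 at 3625 bp.

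Of the erythroid survival signalling genes, among them the erythropoietin receptor pathway that maintains BCL-XL, 12 of 12 were listed, from Stat5a at -3.49 to Pim3 at 6.32 per kb. The kinase gene Pim3 had sites at 7.56 and 4.60 for KLF1-E339K-ER, both with 1.91 for KLF1-ER. Akt2 had 6.39 for KLF1-E339K-ER and 0.50 for KLF1-ER, and at a further site 4.65 against the lowest listed value. Stat5b had 4.14 for KLF1-E339K-ER and the lowest listed value for KLF1-ER. Pim1 (4.07 for KLF1-E339K-ER and 7.43 for KLF1-ER near the start, 5.15 and the lowest listed value 9948.5 bp downstream) and Foxo3 (4.20 and 5.65 at the start, 5.73 and 1.50 at 789.5 bp) had sites of both directions. As at Bbc3, these opposite sites stood at the same gene, which was found for 35.3% of genes with several sites.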

How the data were processed

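By the labels, 6 libraries of 4sU-labeled RNA (3 from K1, 3 from K1-E339K-ER), 1 ChIP library and 1 input were made. Ion Proton reads had been aligned by the authors to mm9, RNA reads with TopHat2 (2.0.10 in the submitters' processing notes) followed by TMAP and ChIP reads with TMAP alone. Poorly mapped RNA reads, and ChIP reads that were duplicated or mapped to several places, had been discarded. The mean expression in the RNA tables is the authors' log2 CPM from limma-voom, pooled over the libraries of the fit, and was the same for each gene in both tables. The concentrations in the site table are the authors' log2 mean normalized read counts per protein from DiffBind. Lengths of genes, site positions and TSS distances were deposited in bp. The counting tool, the gene annotation and the versions of limma and DiffBind are not given in the sources used here. The tables also hold the authors' own comparisons (log2 fold change, t, p-value and adjusted p-value per gene; fold, p-value and FDR per site). These were not used, and no RNA difference between lines is reported.

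Both RNA tables were joined on Entrez identifier, length and mean expression. Symbols differed between the tables for 779 genes, of which none was a member; a gene of the other lists was taken where both symbols agreed or, failing that, where either matched. Deposited lengths lay within 10% of the GENCODE release M1 gene span for 84.8% of 10546 genes. Implied TSS positions lay within 100 bp of an annotated start of the same gene for 94.1% of 5148 sites, in the NCBIM37 (mm9) sequence. The direction of a site was the mutant minus the wild type concentration, with a limit of 1 on the log2 scale. Motifs were searched as exact matches within 50 bp of a midpoint. The search was tested on simulated stretches of A and T that held a planted motif. It was not tested on GC-rich stretches like those of the sites, whose median GC content within 50 bp was 63.4%. Annotated UTR, exon and intron positions refer to the site midpoint. Promoters came from RefSeq. Python 3.11.15, pandas 2.3.3 and pysam 0.24.0 were used. No test was run, since each value used is a single mean, and the depth and error of the libraries are unknown.

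The members and lists were chosen with earlier results of these data known. The text names the 10 members, all 13 of their sites and, of the other lists, the genes with the highest and lowest level per kb and those with a site at least 2-fold different within 10 kb; Becn1, Gp9 and the other listed markers were added. Some items that the rule takes are not reported here. Alternatives were other length scales, distances, fold and concentration limits and motif windows, and, added after the data had been seen, 1 mismatch in a motif, differences relative to their median over all sites or over those off both lowest values, and counts without Bbc3 or without lowest listed values.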

Additional observations from a re-analysis of the deposited data

How the results depend on the processing

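Of 32 comparisons of a reported value with an alternative, 19 stayed within 1.5 times the reported count and 13 did not, or shifted a level by at least 0.1. Some of the 19 could not have moved. All member sites lay within 10 kb, so limits of 10 and 50 kb kept every one. All were past 2-fold, so counting any difference added none. The median level per kb of the members minus that of all genes was 0.88 as reported, 0.081 with no length scaling, 0.34 with annotated exon length and 0.65 among genes with a mean log2 CPM of at least 1. It kept its sign under all 3, but with no length scaling it was below 0.1. Per kb of exon, only 5 of the 10 members lay above the median of all genes with an exon length. The number of members with a site was 5 and fell to 3 when sites had to lie within 1 kb of the TSS. It was 5 within 10 kb (21.3% of all listed genes) or 50 kb. It was 6 when any site in the gene or within 10 kb of it was taken, which added Bad. The share of all genes was not computed at 1 or 50 kb or for the last of these.

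The count of member sites higher for KLF1-E339K-ER was 10 at a 4-fold limit, with any difference or within 10 kb, and 7 with a concentration of at least 5 for 1 protein. It was 5 after the median difference over all sites (2.60) was taken off, 10 after that over sites off both lowest values (1.01), and 3 without Bbc3. The count higher for KLF1-ER was 3, became 2 at a 4-fold limit and 0 with a concentration of at least 5. It was 1 without Bbc3, so both directions rest largely on that gene. At the 4-fold, any-difference, distance and concentration limits no share of all sites was computed. The counts at those limits therefore cannot be set against all sites. The purine motif was found at 7 member sites over the whole site (58.4% of all sites), at 13 with at most 1 mismatch (89.7% of all sites) and at 1 without Bbc3. The pyrimidine motif was found at 12 with at most 1 mismatch (85.1% of all sites) and at 1 without Bbc3. The settings with 1 mismatch, with a median taken off and without Bbc3 were chosen after seeing the data. Apart from what the settings themselves remove, the cause of these shifts was not tested. No paired analysis was possible because the tables hold no value per library.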
